A study of Oryza sativa with 6 samples.

Results

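OsUBA overexpression was compared with OsUBA RNA interference (RNAi, which lowers a transcript through matching double-stranded RNA) across all genes measured on the Affymetrix rice array. The comparison uses 4 of the 6 arrays of the study, 2 from overexpressing seedlings and 2 from RNAi seedlings, and 36998 of 57194 probe sets other than controls. A probe set was kept where its log2 value reached 5 in at least 2 of these 4 arrays, and 20196 probe sets were left out. All seedlings were rice (Oryza sativa) sampled at the 4-leaf stage after growth at 28 °C with no treatment. The third group, wild type of cultivar Nipponbare with 2 arrays, is labelled wild type and is given beside the comparison. The labels call the 2 samples of a group biological replicates. They name neither the promoter of either construct nor the number of lines, nor whether plants were pooled, and no transformed control group is among the samples. Both groups compared here carry a transgene. The transcript of OsUBA itself was not analysed here, because the gene table used for names holds no gene of that name, so the direction of the manipulation rests on the labels.

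Plant cells build cellulose at the plasma membrane, where cellulose synthase (CESA) proteins assemble into complexes that extrude glucan chains. In rice, CESA4, CESA7 and CESA9 serve the secondary walls of vascular and fibre cells, while CESA1, CESA3 and CESA8 are linked to the primary walls of growing cells. Microtubules guide these complexes, and lignin and xylan are laid down with cellulose as secondary walls thicken. Jasmonate signalling works through JAZ (TIFY) repressors, whose genes are themselves switched on by the hormone and so report on its activity.

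The 6 arrays were alike in their medians over all probe sets other than controls and in their actin controls. This compares them with each other and does not grade the RNA. Array medians over all probe sets other than controls lay between log2 5.67 and 5.92, and the 3′ minus 5′ log2 difference of the actin control probe sets lay between 3.04 and 3.51. The 3′ end of actin thus read well above its 5′ end in every array, and whether RNA was degraded was not tested. Over the kept probe sets the RNAi medians (7.66 and 7.52) lay below those of overexpression (7.78 and 7.78), with wild type at 7.73 and 7.68. Across kept probe sets, the 2 arrays of a group correlated at 0.920 to 0.928, and an overexpression with an RNAi array at 0.848 to 0.894. These correlations run across probe sets of the same arrays and are descriptions. Leaf markers (7 measured genes) summed to log2 17.21 to 17.46 in every array. Of the 7, 4 photosynthetic genes (RBCS, CAB2R, PSAH, PORB), named after their values were seen, were bright in all 6 arrays. Another member, PORA, was not, at 7.24 and 5.76 in RNAi. Root markers (7 genes) summed to 9.69 to 10.37, shoot meristem and dividing cell markers (5 genes) to 11.95 to 12.47 and flower or seed markers (7 genes) to 11.08 to 11.79. Of these 4 lists, the leaf gene PORA alone was called different between overexpression and RNAi.

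Cellulose synthase genes were higher in overexpression than in RNAi in 8 of 9 cases, and among the other wall-building lists a minority of genes was called, 4 of 9 for xylan, 6 of 19 for lignin, 3 of 15 for sugar supply and 2 of 17 for cellulose synthase-like genes, all higher. Among the genes called lower were 5 of 33 jasmonate genes, all JAZ repressors. In the fit without a brightness trend, given below, 0 of the 33 were called. The shares over all measured genes were 5.68% higher and 1.44% lower. Over all genes, 1679 probe sets, 4.54% of those tested, differed between overexpression and RNAi at an adjusted p under 0.05 (limma with a prior spread that follows brightness, p-values adjusted after Benjamini and Hochberg across every kept probe set). Of these, 1302 (3.52%) were higher in overexpression and 377 (1.02%) lower. The number depends strongly on how the spread between replicates is modelled: limma with 1 prior spread for all brightness levels called 227 probe sets (0.614%), 201 higher and 26 lower. The fit with the brightness trend was chosen while results of the other kind of fit on these data were known, so both counts stand as results. At an unadjusted p under 0.05 the fit with the trend holds 7325 probe sets. The first overexpression array carried much of the number: without it 232 probe sets were called, 215 higher and 17 lower, the lone remaining array being assumed to vary like the other groups.

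The higher probe sets differed by more than the lower ones. Their median log2 difference was 2.69, against -1.13 for the lower probe sets, and 307 of the higher but 12 of the lower differed by a log2 of 4 or more. For 232 of the higher probe sets the RNAi mean lay under the floor of log2 5, and for 14 of the lower ones the overexpression mean did. For such genes the fold is counted from the floor and given as "at least". Where both arrays of 1 group were under the floor, a probe set was kept only through the arrays of the other group. That it reads higher there then follows in part from the filter and gives no separate support. The bulk of the kept probe sets leaned slightly the other way, with a median difference of -0.09 and 44.1% positive. Centring each array on its median moved that median difference from -0.09 to -0.28, and with it the split of calls from 77.5% to 60.8% higher in overexpression (1204 higher and 775 lower). Of the 93 genes selected for naming, 92 were still called after centring. That 0 had changed direction gives no separate support, since they were selected as called with non-overlapping groups.

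**Figure D1:**
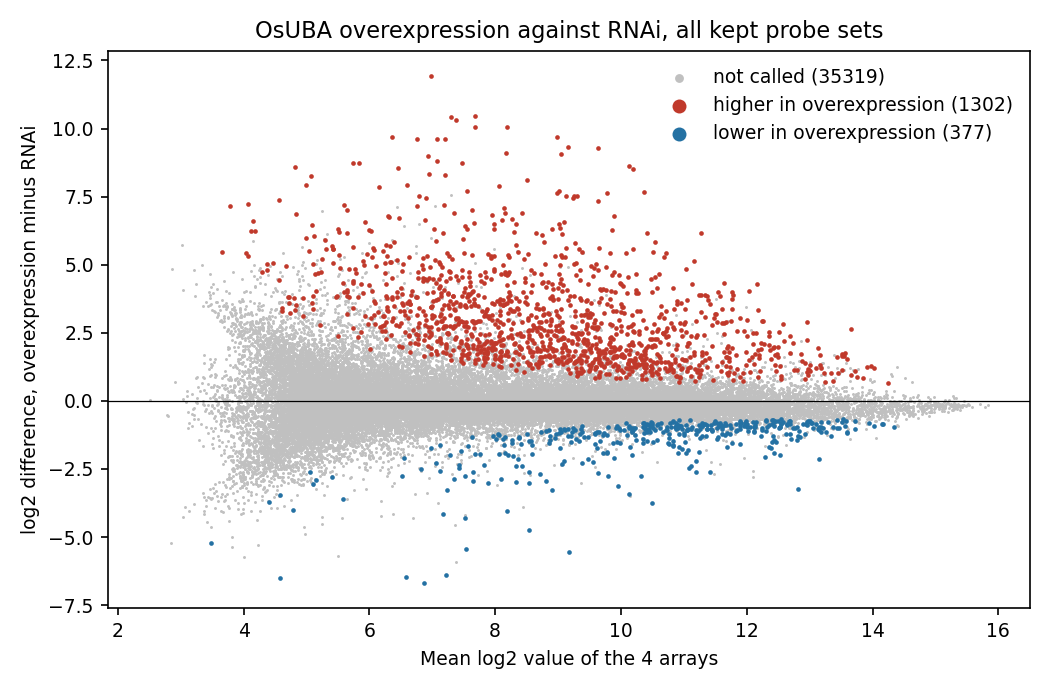
Log2 difference (overexpression minus RNAi, vertical axis) against the mean log2 value of the 4 arrays (horizontal axis) for each of the 36998 kept probe sets. Red points are the 1302 called higher in overexpression, blue points the 377 called lower, and grey points were not called; the calls reach further above 0 than below it.

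The overexpression and RNAi arrays did not overlap in any of the 1679 called probe sets, and in 53.2% of all kept probe sets. The replicates still differed in level. Among the probe sets called higher, the first overexpression array was above the second in 89.8%, while over all kept probe sets this share was 46.6%. Among those called lower, the second overexpression array was more often the nearer to RNAi, the first being above it in 30.2%. The first overexpression array thus stood further from RNAi than the second over most called probe sets; why was not tested.

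Counted by gene, with the brightest probe set of each, 1161 of 16314 measured genes (7.12%) were called, 926 higher (5.68%) and 235 lower (1.44%) in overexpression. These shares are the background for the gene groups that follow. For unadjusted p-values the background is 4430 of the 16314 measured genes under 0.05. Over all measured genes the median log2 difference was -0.07. On the 12 chromosomes between 5.81% and 7.80% of measured genes were called, so the calls were spread over the genome.

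Cellulose synthase genes were higher in overexpression in 8 of 9 measured cases, with a median log2 difference of 3.73. CESA7, a secondary wall subunit, read log2 12.91 and 12.19 in overexpression, 8.90 and 5.33 in RNAi, and 11.58 and 12.01 in wild type. Its level was 43.2 times as high in overexpression as in RNAi (log2 difference 5.43, SE 0.97, adjusted p 0.0267), and the second RNAi array was the lowest by far. CESA4 read 12.65 and 11.89 in overexpression, 8.38 and 6.93 in RNAi and 11.77 and 11.72 in wild type, a 24.5-fold difference (log2 4.62, SE 0.46, adjusted p 0.0032). CESA9 followed with 10.65 and 9.70 against 6.79 and 4.63, wild type being at 9.23 and 9.82 (22.1-fold, log2 4.46, SE 0.67, adjusted p 0.014). In these 3 genes both RNAi arrays lay below the other 4, and wild type lay below overexpression without overlap in CESA4 and CESA7 but overlapped it in CESA9. By limma without the brightness trend 0 of these 3 were called, at adjusted p 0.0614 for CESA4, 0.155 for CESA7 and 0.112 for CESA9.

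The subunits linked to primary walls differed as well. CESA1 read 13.75 and 13.50 in overexpression, 10.01 and 9.79 in RNAi and 12.50 and 12.45 in wild type (log2 difference 3.73, adjusted p 0.000285). CESA8 read 13.72 and 13.28, 10.05 and 9.25, and 11.95 and 12.11 in the same order (log2 3.85, SE 0.28, 14.4-fold, adjusted p 0.0012). CESA3 was the brightest of the list, at 14.50 and 14.32, 12.05 and 10.99, and 13.33 and 13.34 (log2 2.90, adjusted p 0.00426). In these 3, as in CESA4 and CESA7, wild type lay between the other groups without overlap. CESA5 (log2 3.60, adjusted p 0.00114) and CESA6 (log2 2.99, adjusted p 0.00392) were higher too. CESA2 was not called, at 6.29 and 6.04 against 6.41 and 6.08 (log2 -0.08, adjusted p 0.958). Without the first overexpression array 5 of the 9 were called, and without the brightness trend 3.

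**Figure D2:**
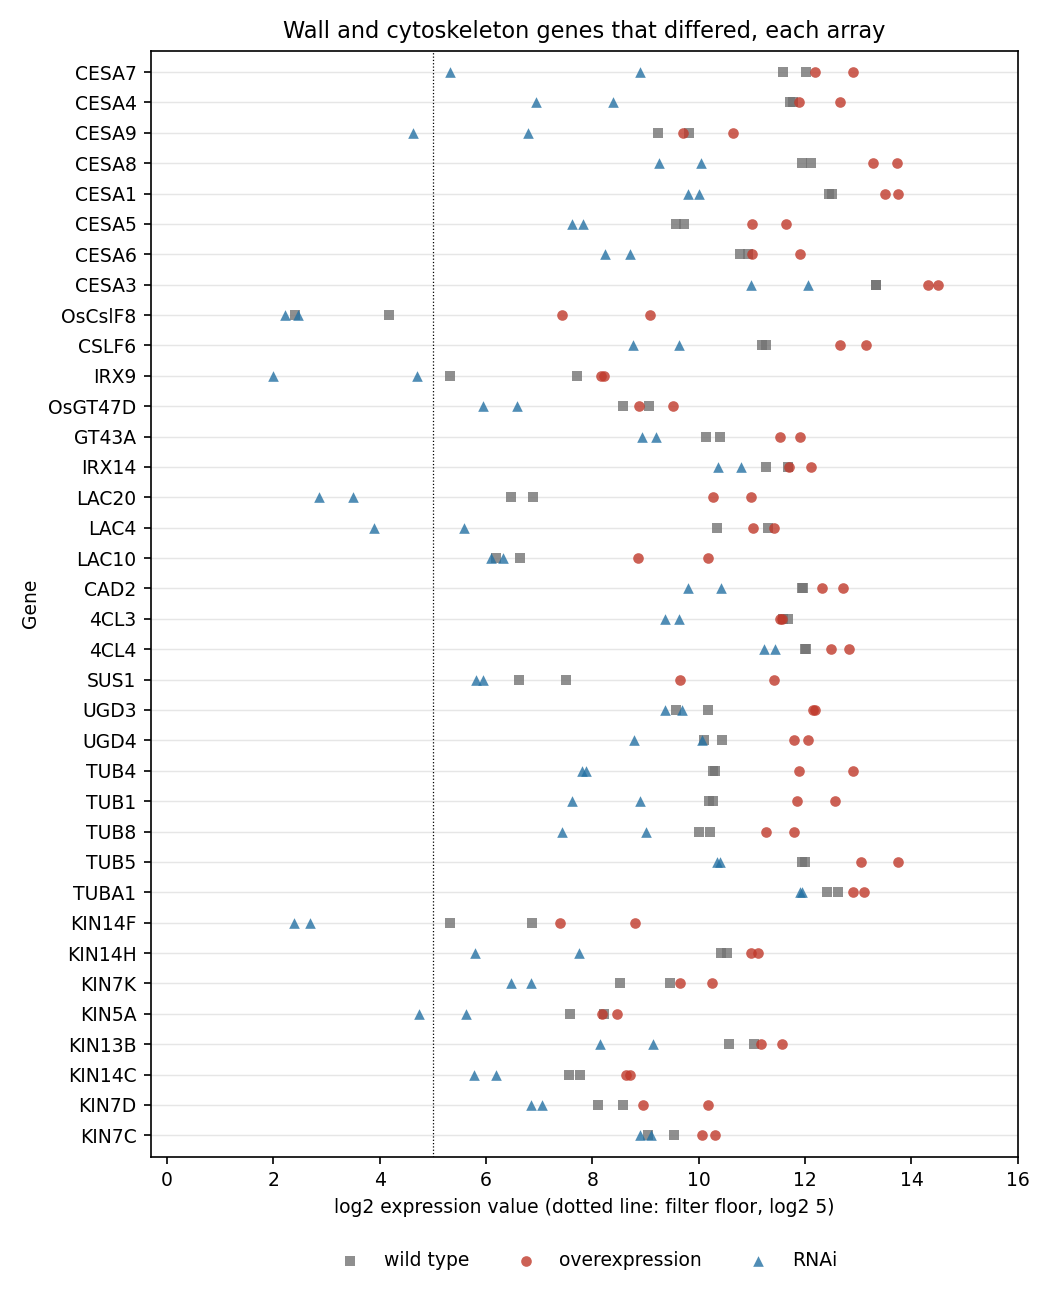
Log2 expression value in each of the 6 arrays (horizontal axis) for the called genes of the cellulose synthase, cellulose synthase-like, xylan, lignin, sucrose and UDP-sugar, tubulin and kinesin lists (1 row per gene, brightest probe set). Red circles are overexpression, blue triangles RNAi and grey squares wild type, 2 arrays each; in every row both red circles lie to the right of both blue triangles.

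Genes for the other wall polysaccharides were called in part, and in the same direction. Of 17 cellulose synthase-like genes 2 were higher, both of the CSLF family that makes the mixed-linkage glucan of grass walls, and 0 lower (median log2 difference 0.80). CSLF6, the main synthase of that glucan, read 13.14 and 12.65 in overexpression, 9.63 and 8.77 in RNAi and 11.19 and 11.26 in wild type (13.0-fold, log2 3.70, SE 0.30, adjusted p 0.00158). OsCslF8 was near or under the floor outside overexpression, with 9.09 and 7.42 against 2.22 and 2.47 in RNAi and 4.18 and 2.40 in wild type (at least 9.53-fold, adjusted p 0.0253). The remaining 15 did not pass the test, and the list held 1 call without either overexpression array, the second RNAi array or the trend.

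Xylan glycosyltransferases, which build the main hemicellulose of grass walls, were higher in 4 of 9 and lower in 0, with a median of 1.09. GT43A differed most clearly, at 11.91 and 11.53 in overexpression against 8.93 and 9.19 in RNAi, with wild type at 10.13 and 10.40 (6.31-fold, SE 0.21, adjusted p 0.00154). OsGT47D (7.65-fold, adjusted p 0.00698), IRX14 (2.49-fold, adjusted p 0.0274) and IRX9 (at least 9.10-fold, adjusted p 0.0496) made up the rest. IRX9 passed only barely, its RNAi arrays being 4.70 and 1.99. The list held 1 call without the first overexpression array, 1 without the trend and 2 without either wild-type array, the second overexpression array or the second RNAi array.

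Among lignin and phenylpropanoid genes 6 of 19 were higher and 0 lower, with a median of 1.03. Laccases, which oxidise lignin monomers in the wall, included the largest of these differences. LAC20 read 10.99 and 10.26 in overexpression, 2.86 and 3.50 in RNAi and 6.46 and 6.89 in wild type, so it was at least 49.2-fold higher (adjusted p 0.000725). LAC4 read 11.41 and 11.02 against 5.58 and 3.89, wild type being at 11.31 and 10.34 (at least 74.4-fold, adjusted p 0.00198). Wild type overlapped overexpression in LAC4 and lay between the groups in LAC20. LAC10 was 9.96-fold higher (adjusted p 0.0111), and in it wild type (6.18 and 6.63) lay near RNAi (6.10 and 6.31). The monolignol genes CAD2, a cinnamyl alcohol dehydrogenase (5.30-fold, adjusted p 0.0033), and 4CL3 and 4CL4, which activate hydroxycinnamates (adjusted p 0.00158 and 0.00838), differed less. LAC7 had a log2 difference of 2.51 but an adjusted p of 0.292, and its arrays spread widely. The list held 4 calls without the first overexpression array and 2 without the trend.

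Sugar supply to the wall was represented by 15 genes of sucrose and UDP-sugar metabolism, of which 3 were higher and 0 lower (median 0.47). SUS1, a sucrose synthase that frees UDP-glucose from sucrose, has 2 probe sets. One gave 12.50 and 10.87 in overexpression, 4.87 and 4.30 in RNAi and 7.94 and 7.50 in wild type (at least 103-fold, adjusted p 0.00124), and the brighter one a log2 difference of 4.65 (25.1-fold, adjusted p 0.00713). UGD3 and UGD4, UDP-glucose dehydrogenases at the entry to xylan precursors, were 6.22-fold (adjusted p 0.00248) and 5.67-fold (adjusted p 0.0154) higher. Wild type lay between the groups for SUS1, but near RNAi for UGD3, at 9.58 and 10.18 beside 9.36 and 9.69. The list held 1 call without the first overexpression array and 0 without the trend.

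Wall loosening genes (expansins, xyloglucan endotransglucosylases and beta-glucosidases) were called in both directions, 8 of 42 higher and 2 lower, with a median of 0.67. EXPB11, a beta-expansin, read 11.05 and 8.78 in overexpression, 5.15 and 4.25 in RNAi and 8.08 and 8.28 in wild type (at least 30.2-fold, adjusted p 0.00924). EXPB3 (log2 3.37), EXPA2 (log2 3.28) and XTH8 (log2 2.86) were higher as well, with adjusted p values of 0.00896, 0.018 and 0.00631. The other 4 higher genes and both lower ones were beta-glucosidases: BGLU33, BGLU3, BGLU28 and BGLU7 higher, BGLU19 and BGLU36 lower (log2 -0.90 and -1.01). The probe sets of BGLU10 disagreed: 2 of 3 were higher, at least 51.8-fold (adjusted p 0.0439) and by a log2 difference of 4.01 (adjusted p 0.00883), while the brightest, which the list counts, was at -1.44 and was not called (adjusted p 0.0563). Without the first overexpression array the list held 2 genes higher and 0 lower, and without the trend 1 and 0. The lower count was 1 without either wild-type array or either RNAi array.

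The cytoskeleton genes that differed were all higher in overexpression. Among tubulins and actins 5 of 13 were higher (median 0.41): the beta-tubulins TUB4, TUB1, TUB8 and TUB5 and the alpha-tubulin TUBA1. TUB4 read 12.90 and 11.88 in overexpression, 7.81 and 7.88 in RNAi and 10.26 and 10.30 in wild type. Overexpression was 23.4-fold above RNAi (SE 0.32 on the log2 scale, adjusted p 0.00113). Its less bright probe sets differed less, by a log2 of 2.47 (adjusted p 0.0319) and of 0.50, which was not called (adjusted p 0.81). TUB1 was 15.5-fold higher (adjusted p 0.00394) and TUB5 8.18-fold (adjusted p 0.0013). Without the first overexpression array 2 tubulins and actins were called, and without the trend 2. Kinesins, motors that move along microtubules, were higher in 8 of 27 (median 0.92), among them KIN14H (19.4-fold, adjusted p 0.00805), KIN7K (9.81-fold, adjusted p 0.00522) and KIN5A (8.84-fold, adjusted p 0.0101). Without the first overexpression array 0 kinesins were called, and without the trend 1. Of 26 cell cycle genes limma called 0 with or without the trend, 6 having an unadjusted p under 0.05, and their median was 0.32.

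Among hormone genes, the calls in the Aux/IAA and brassinosteroid lists were all higher, and those in the jasmonate and cytokinin lists all lower. Of 12 abscisic acid genes 1 was higher and 0 lower, and without the brightness trend 0 were called. Aux/IAA repressors, which block auxin response factors and whose genes auxin induces, were higher in 9 of 23 and lower in 0, with a median of 1.11. IAA30 read 11.12 and 10.32 in overexpression, 7.07 and 5.82 in RNAi and 9.33 and 9.42 in wild type (19.3-fold, log2 4.27, SE 0.44, adjusted p 0.00357). IAA21 was 7.44-fold higher (adjusted p 0.00141), and IAA12, IAA31, IAA13, IAA24, IAA17, IAA15 and IAA3 followed with log2 differences of 1.11 to 2.27. The list held 1 call without the first overexpression array, 4 without the second, 4 without the second RNAi array and 1 without the brightness trend. Auxin response factors, transporters and other auxin genes gave 0 calls of 27 by limma with or without the trend, 5 having an unadjusted p under 0.05, with a median of 0.08. Brassinosteroid genes were higher in 3 of 6 (median 0.96): the receptor BRI1 (2.38-fold), the biosynthetic P450 D11 (3.87-fold) and CYP734A6, of a family that inactivates the hormone (7.69-fold), at adjusted p values of 0.0337, 0.0265 and 0.00723. Brassinosteroid calls numbered 0 without the first overexpression array, 0 without the trend and 1 without either wild-type array or the second RNAi array.

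Jasmonate genes were lower in overexpression in 5 of 33 cases and higher in 0, with a median of -0.26, and all 5 encode JAZ repressors. TIFY11A, also called JAZ9, read 6.35 and 6.40 in overexpression, 9.33 and 9.43 in RNAi and 6.51 and 5.10 in wild type (8.03-fold lower, log2 -3.01, SE 0.48, adjusted p 0.0177). JAZ12 read 9.31 and 10.39 against 12.22 and 12.43, wild type being at 9.79 and 9.56 (5.56-fold lower, adjusted p 0.0093). JAZ13 was 7.87-fold lower (adjusted p 0.0394), and TIFY11B and TIFY11C had log2 differences of -2.22 and -2.10 (adjusted p 0.0295 and 0.046, brightest probe sets). In these genes wild type lay near overexpression and RNAi stood above both. The enzymes of jasmonate synthesis were not called: AOS1 had a log2 difference of -0.92 (adjusted p 0.171) and AOS2 of 1.89 (adjusted p 0.186). The list held 1 call without the first overexpression array, 3 without the second, 1 without the second RNAi array, 2 without either wild-type array and 0 without the trend.

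**Figure D3:**
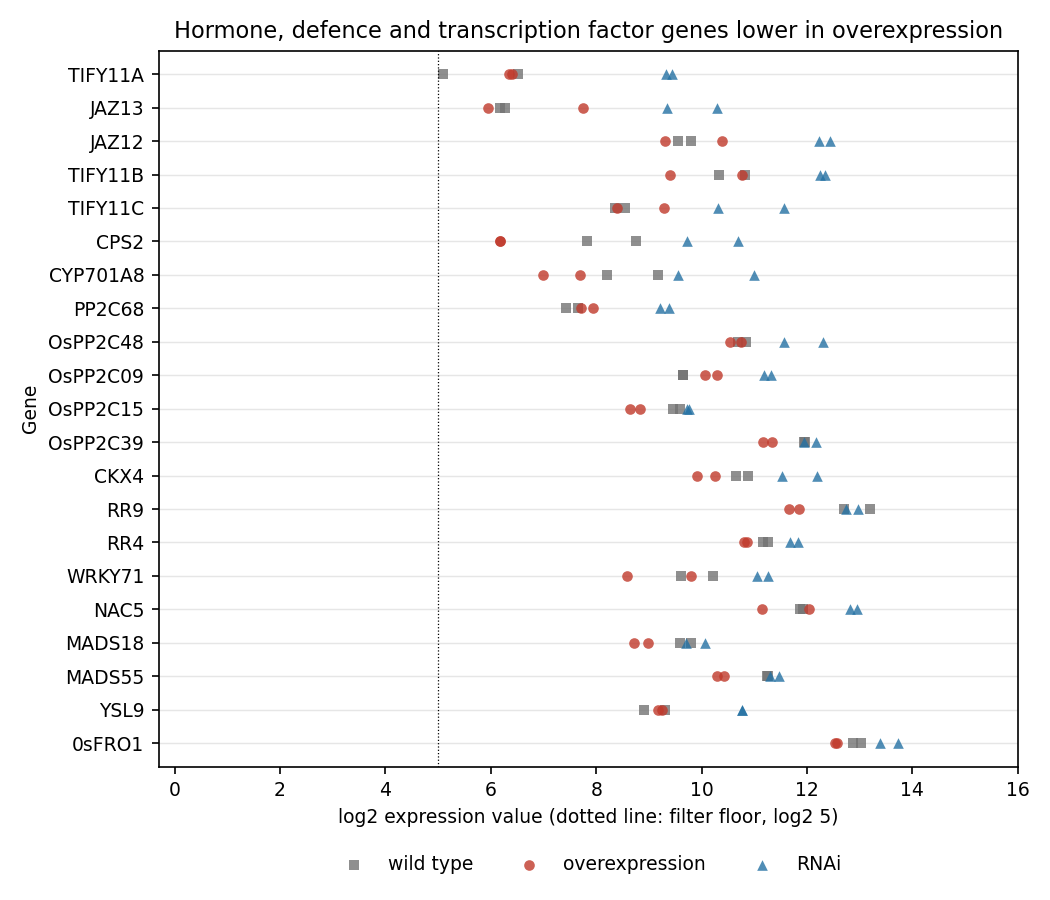
Log2 expression value in each of the 6 arrays (horizontal axis) for genes called lower in overexpression in the jasmonate, diterpenoid, protein phosphatase, cytokinin, transcription factor and metal transporter lists (1 row per gene, brightest probe set). Blue triangles (RNAi) lie to the right of red circles (overexpression) in every row; in the 5 jasmonate rows at the top the grey squares (wild type) lie beside the red circles.

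Diterpenoid phytoalexin genes were lower in overexpression in 2 of 12 measured cases and higher in 0, with a median of -0.49. CPS2, the synthase that commits precursors to diterpenoid phytoalexins, read 6.17 and 6.18 in overexpression, 9.72 and 10.69 in RNAi and 8.75 and 7.83 in wild type (16.3-fold lower, log2 -4.03, SE 0.42, adjusted p 0.00378). CYP701A8, a kaurene oxidase-like P450, was 7.67-fold lower (adjusted p 0.0277). The list held 1 call without the first overexpression array, the second RNAi array or either wild-type array, 4 without the second overexpression array and 0 without the trend. CYP71Z6, another P450 of that pathway which the list does not hold, was 9.73-fold lower (adjusted p 0.0418). EIL1B, an EIN3-like factor of ethylene response, read 9.10 and 10.67 against 12.61 and 12.42 in RNAi, with wild type at 9.38 and 10.03 (6.18-fold lower, adjusted p 0.0275). It is outside the ethylene list of 7 genes as matched, where 1 (ACO1, 5.96-fold) was higher and 0 lower. WRKY71, a defence-related factor and the 1 called of 6 WRKY genes, was 3.92-fold lower (adjusted p 0.0387). NAC5, a stress-related factor and the 1 called of 7 NAC genes, was 2.44-fold lower (adjusted p 0.0461). The ethylene, WRKY and NAC lists held 0 calls without the first overexpression array and 0 without the trend.

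Cytokinin genes were lower in 3 of 26 and higher in 0 (median 0.00): the response regulators RR4 and RR9 and the cytokinin oxidase CKX4. CKX4 read 9.91 and 10.26 in overexpression, 11.52 and 12.19 in RNAi and 10.88 and 10.65 in wild type (3.40-fold lower, adjusted p 0.0122). Protein phosphatases 2C were lower in 5 of 52 and higher in 1 (median -0.23). PP2C68 was 2.79-fold lower (adjusted p 0.0226) and OsPP2C48 2.46-fold (adjusted p 0.035), while OsPP2C73 was 12.6-fold higher (adjusted p 0.0335), with another probe set of that gene at the opposite sign. Both lists held 0 calls without the first overexpression array and 0 without the trend. Without the second overexpression array or the second RNAi array the cytokinin list held 1, and the phosphatase list 0 lower; the latter held 2 lower without either wild-type array or the first RNAi array. MADS factors, of flowering and development, were lower in 2 of 19 and higher in 0 (median -0.38). The 2 were MADS18 and MADS55, 2.06-fold and 2.02-fold lower (adjusted p 0.0485 and 0.0167). Without the trend the list held 0 calls, and with the 4 compared arrays alone 1. With 1 array left out, the log2 differences of MADS18 and MADS55 ran from -1.22 to -0.86 and from -1.09 to -0.93. These ranges give the size of the differences and do not show that the calls held. Wild type lay with RNAi in MADS55, at 11.26 and 11.25 beside 11.30 and 11.46.

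**Figure D4:**
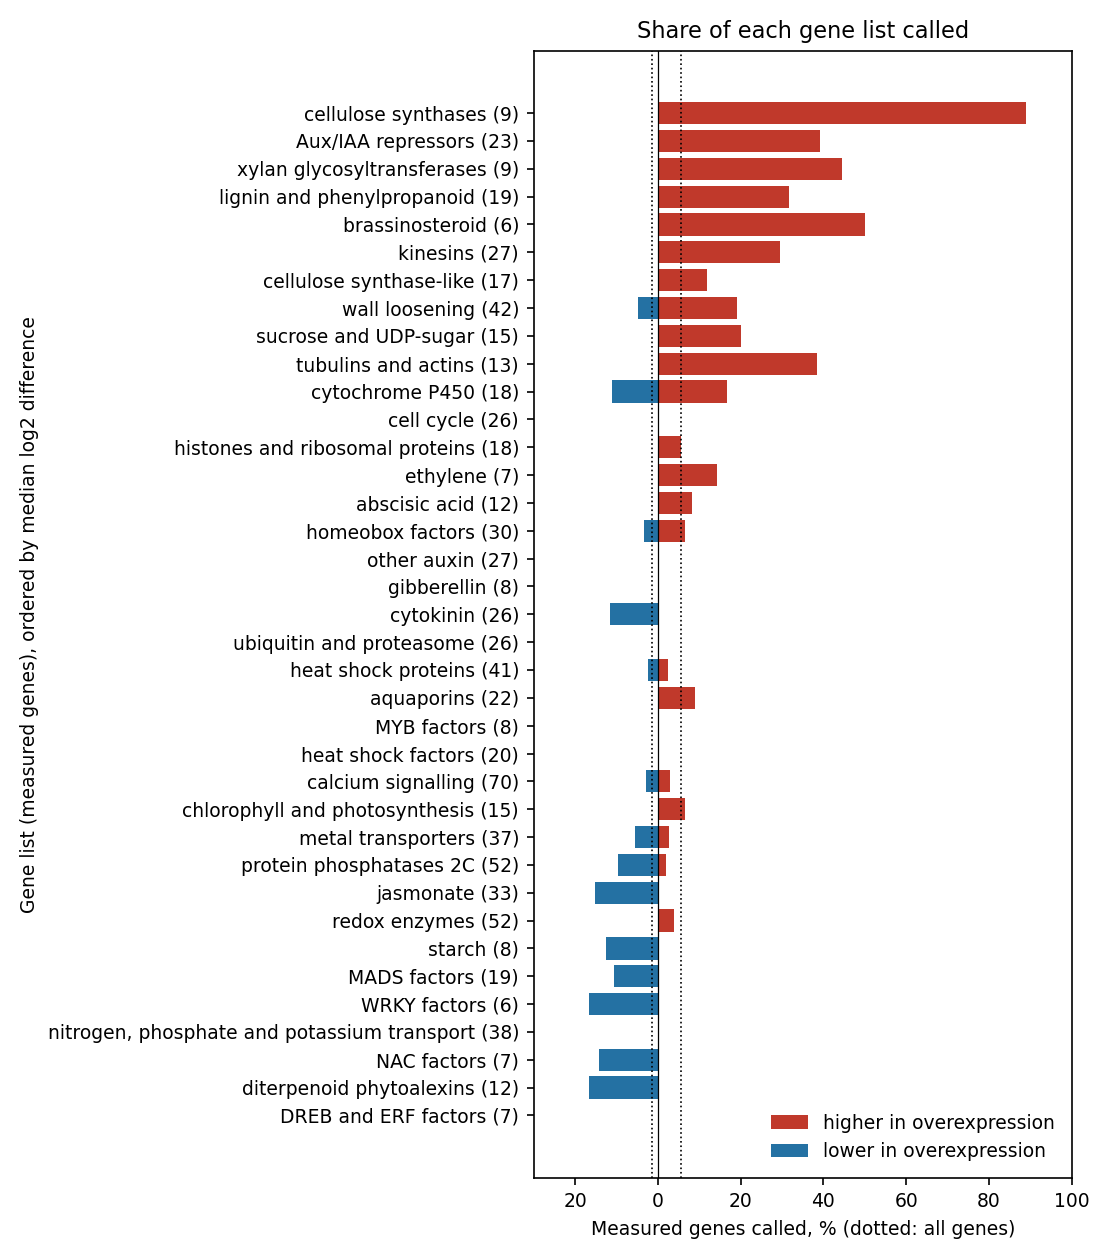
Share of measured genes called (horizontal axis, %) in each list with at least 5 measured genes, red bars to the right for genes higher and blue bars to the left for genes lower in overexpression. Dotted lines mark the shares over all measured genes (5.68% and 1.44%); lists are ordered by median log2 difference, from cellulose synthases at the top (8 of 9 higher), and list sizes stand in brackets.

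Several groups held few or 0 calls. Beside the 7.12% called over all measured genes, 0 or 1 call in lists of this size is not read as a lack of difference. Of 26 ubiquitin and proteasome genes and of 20 heat shock factors, 0 were called by limma with or without the trend, with medians of -0.02 and -0.12 and an unadjusted p under 0.05 in 2 genes of each. Photosynthesis and chlorophyll genes were called in 1 of 15. That gene, PORA, encodes a protochlorophyllide oxidoreductase of greening tissue and differed greatly: it read 13.62 and 12.94 in overexpression, 7.24 and 5.76 in RNAi and 12.24 and 9.97 in wild type (110-fold, log2 6.78, SE 0.75, adjusted p 0.00477). Its relative PORB was at 14.09 and 13.99 against 14.00 and 14.05 (adjusted p 0.973). Nitrogen, phosphate and potassium transporters were called in 0 of 38 (median -0.43), MYB factors in 0 of 8, DREB and ERF factors in 0 of 7 and gibberellin genes in 0 of 8. An unadjusted p under 0.05 was found in 7, 2, 2 and 1 of these genes, and the fit without the trend called 0 of them.

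The largest single differences included genes outside these groups. GER5, a germin-like gene, read 14.54 and 11.58 in overexpression, 5.17 and 5.92 in RNAi and 9.99 and 6.64 in wild type (183-fold, adjusted p 0.0177). HOS66, a homeobox gene, was 52.7-fold higher (adjusted p 0.00172), and AT15 at least 82.6-fold (adjusted p 0.000918). Among genes known only by a locus number, LOC4324833 had the smallest adjusted p of all kept probe sets: it read 14.38 and 14.49 in overexpression, 5.79 and 5.83 in RNAi and 13.80 and 13.58 in wild type (395-fold, log2 8.62, SE 0.16, adjusted p 3.84e-06). LOC4333623 was at least 625-fold higher by 1 probe set (adjusted p 0.0012), with wild type at 5.78 and 8.22. Its other probe set, at means of 7.8 in overexpression and 3.2 in RNAi, was not called (log2 4.59, adjusted p 0.176). In the other direction, LOC4344230 read 3.80 and 4.23 in overexpression, 10.53 and 10.29 in RNAi and 5.40 and 4.77 in wild type (at least 42.5-fold lower, adjusted p 0.00113). LOC4346594 was at least 36.8-fold lower (adjusted p 0.00541). LOC4340325 was at least 38.0-fold lower by 1 probe set (adjusted p 0.0119), but its other probe set, at means of 6.47 and 6.67, had a log2 difference of -0.20 (adjusted p 0.838). In LOC4324833 the RNAi arrays stood apart below the other 4, in LOC4333623 the overexpression arrays stood above the others, and in LOC4344230 the RNAi arrays did.

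Wild type was described beside the calls without a test, because its position follows in part from choosing probe sets by the difference between the other groups. The wild-type mean lay between the overexpression and RNAi means in 92.9% of probe sets called higher and in 86.5% of those called lower, against 45.7% of all kept probe sets. It was nearer to the RNAi mean in 44.2% of those called higher and in 31.8% of those called lower, and in 49.7% of all kept probe sets.

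**Figure D5:**
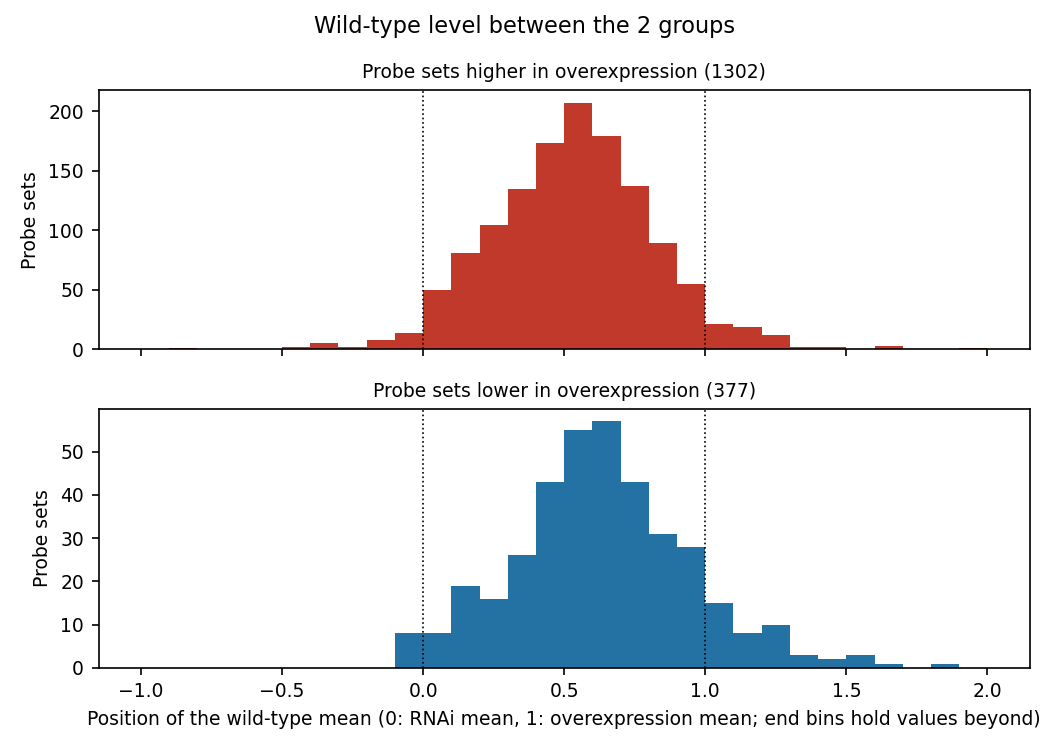
Position of the wild-type mean between the RNAi mean (0) and the overexpression mean (1) on the horizontal axis, and the number of probe sets on the vertical axis, for the 1302 probe sets called higher (top) and the 377 called lower (bottom) in overexpression. Most lie between the dotted lines, with medians of 0.54 and 0.61, and the end bins hold values beyond the axis.

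The 3 vascular and secondary wall markers measured were CESA4, CESA7 and CESA9, which are also members of the cellulose synthase list and so give no separate measure of vascular tissue. They summed to log2 13.94 and 13.18 in overexpression, 9.85 and 7.55 in RNAi and 12.80 and 13.04 in wild type. All 3 are among the 8 calls of that list, but without the brightness trend 0 of the 3 were called. In RNA from seedlings, fewer cells of a type and less RNA per cell cannot be told apart, and the part of vascular tissue in these differences was not tested. None of the 93 genes selected for naming changed direction in any fit tried. They were selected as called with non-overlapping groups, so leaving out 1 array could not reverse them, and this gives no separate support. With 1 array left out, the log2 difference ran from 3.89 to 5.34 for CESA4, 3.65 to 7.22 for CESA7, -3.01 to -1.94 for JAZ12 and -4.51 to -3.54 for CPS2.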

How the data were processed

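Total RNA was extracted with Trizol from seedlings, and biotin-labelled cRNA from 6 µg was hybridised to 1-colour arrays, per the labels' protocols. The authors deposited 1 table of 57381 probe sets on 6 arrays, with values in log2, used as deposited. Per the submitters' processing notes the values come from RMA, no version given; each array holds 331 to 618 exact zeros, so the summary step is uncertain. Control (123) and reporter (64) probe sets entered no test. The number of arrays limits the precision, and no detection calls were used.

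Overexpression minus RNAi was fitted in R 4.3.3 with limma 3.58.1, using the means of 3 groups from all 6 arrays (residual degrees of freedom 3), an intensity trend, two-sided moderated tests, Benjamini-Hochberg adjustment over the 36998 kept probe sets, threshold 0.05. The script was tested on simulated data. Group means under log2 5 count as 5 in folds; none is given where both are under it. P-values measure the spread between the samples called replicates.

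The comparison, the fit, the 37 lists and 5 marker lists were chosen with earlier results of these data known. Named genes are the 12 largest called differences each way among named genes, the 4 largest each way among genes with a locus number alone, and up to 4 called genes per list, by floored difference and with non-overlapping groups; others are named as called list members or, where not called, after their values were seen. Lists take the brightest probe set of a gene and named genes the one with the largest floored difference. Names came from a RefSeq gene table (assembly ASM3414082v1), with 19938 kept probe sets mapping to 1 gene, 86 to several and 16974 to none listed; 2248 of 16314 genes have a name.

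Name matching was revised after list values had been seen: names that the table gives to several genes had put wrong genes in some lists, and such a name is now ignored for a gene to which it does not properly belong. This changed the size of 12 lists and the calls of 3 (the closing section gives both). Sequences and promoters were not analysed here.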

Additional observations from a re-analysis of the deposited data

Results flagged for a closer look

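Reporter probe sets, which detect foreign marker sequences and were outside the comparison, carried signal in the transgenic arrays above every wild-type array. One reporter reached a mean log2 value of 14.19 in overexpression (13.96 and 14.41) and 13.16 in RNAi (13.40 and 12.91), against 3.12 and 2.97 in wild type. A second averaged 13.43 in RNAi (13.22 and 13.64), while overexpression (3.59 and 5.09) and wild type (5.15 and 3.50) stayed low. The 2 transgenic groups thus also differ in the signal of a reporter. Of the 64 reporters, 3 reached log2 7 in any array. A further 5 had both RNAi arrays above both wild-type arrays but lay near the floor of log2 5, at means of 5.38, 5.70, 6.54, 5.51 and 6.00; with 2 arrays a group and 64 reporters, such small excesses are not read as signal.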

How the results depend on the processing

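The 1679 calls (1302 higher, 377 lower) moved by over 1.5 times under several settings. Without the intensity trend there were 227 (201 higher, 26 lower), and with the 4 compared arrays alone 1071, 148 of them lower. Median centring gave 775 lower. Leaving out each array in turn gave 232 to 1762 calls, 215 to 1420 higher and 17 to 342 lower: 232 without the first overexpression array, 896 without the second RNAi array, 997 without the second overexpression array, and 1009 and 1010 without either wild-type array. The other filters, a robust prior, quantile normalisation, averaged probe sets, leaving out probe sets with zeros and, chosen after seeing the data, leaving out those that can match several transcripts gave 1407 to 1852.

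With the replicate block there were 1514 calls. Differences between the first and second array correlated at -0.015 between overexpression and RNAi over all kept probe sets. Among probe sets called higher, the first array was above the second in 89.8% in overexpression and 66.2% in RNAi. Among those called lower the shares were 30.2% and 28.1%, and over all kept probe sets 46.6% and 49.4%. Whether arrays of the same number share a batch was not tested, and with 2 pairs no pairing is taken from the numbers. Of the 93 named genes 83 stayed called with the block and 16 without the trend, and most did not without the first overexpression array. That 0 reversed in any setting gives no separate support, since they were selected as called with non-overlapping groups.

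Name matching also mattered, as an alternative chosen after seeing the data. With shared names allowed, the ethylene list has 9 measured genes with 1 higher and 1 lower (7, 1 and 0 as reported), histones and ribosomal proteins 23 with 2 higher (18 and 1), and flower or seed markers 8 with 1 lower (7 and 0). Aux/IAA repressors keep 9 calls, of 25, at a median of 0.90. The cause of the differences between settings was not tested.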

Other observations

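Some called genes lie next to each other in the RefSeq gene order. With at most 2 genes between them, 141 pairs of neighbouring called genes were found, 105 with the same direction and 36 with opposite directions. How many such pairs as many other measured genes would give was not tested. Since 926 of 1161 called genes were higher, most pairs would share a direction whatever their order. TIFY11A, TIFY11C and TIFY11B are consecutive on chromosome 3 and were all lower in overexpression (log2 -3.01, -2.10 and -2.22). IAA30 and IAA31 adjoin on chromosome 12 (4.27 and 2.12), and so do the germin-like genes GER2 and GER1 on chromosome 8 (5.05 and 2.88) and TBL6 and TBL5 on chromosome 3 (4.38 and 1.49), all higher. CYP71Z6 and CPS2 lie 2 genes apart on chromosome 2, both lower (-3.28 and -4.03). GER1, GER2, TBL5 and TBL6 were chosen after their values were seen. Related neighbours can share probe sequence, and whether they do was not tested.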
